A study of Mus musculus with 2 samples.

Results

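Microglia are the resident macrophages of the brain, and this account covers 10 genes that mark them and related macrophages in whole midbrain of mouse embryos. The genes were taken by name: C1qa, C1qb, C1qc, Csf1r, Cx3cr1, Aif1, Trem2, Tyrobp, P2ry12 and Mrc1. All 10 were found by identifier among the 43346 genes of the deposited tables. The tissue came from strain B6NCrl at embryonic day 11.5, untreated and of mixed sex, and no transgene or other allele is given. There was 1 group with 2 biological replicates. Replicate 1 pooled 109 embryos, replicate 2 pooled 88, and the labels give both the same donor entry. Each library was made from 10 ng of total RNA over 200 nt. With 1 group there was no condition to compare, so levels were described within each library and then set side by side between the pools. Any difference between the pools has no check in further samples, since each pool is 1 library.

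Microglia descend from yolk sac macrophages that enter the neural tube early in development, before the brain makes its own glia. They depend on the receptor tyrosine kinase CSF1R, respond to neurons through the chemokine receptor CX3CR1 and clear dying cells. C1QA, C1QB and C1QC are the 3 chains of C1q, the recognition part of the classical complement pathway, and each has a collagen-like stem in which glycine opens each triplet of residues. TREM2 is a lipid-binding receptor with no signalling tail of its own, and TYROBP (also called DAP12) is the adaptor that signals for it through an immunoreceptor tyrosine-based activation motif (ITAM). P2RY12 is an ADP receptor typical of microglia. MRC1 is the mannose receptor, found on macrophages of the brain's borders and on some endothelium. AIF1 (IBA1) is an actin-binding protein widely used to stain microglia.

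The coding sequences that define the C1q family and the TYROBP signal are shown first, since the levels of these 4 genes are compared later. They were read from GENCODE M21 transcripts on mm10. For the C1q genes, the longest unbroken run of glycine triplets is printed with each glycine codon in capitals. For Tyrobp the ITAM is printed with its 2 tyrosine and 2 leucine codons in capitals.
C1qa-201 (chr4:136896565-136896708, minus strand): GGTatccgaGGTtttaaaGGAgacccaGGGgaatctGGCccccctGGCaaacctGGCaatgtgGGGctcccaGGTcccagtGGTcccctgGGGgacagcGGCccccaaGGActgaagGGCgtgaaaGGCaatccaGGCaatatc
C1qb-201 (chr4:136880700-136882217, minus strand, an intron removed): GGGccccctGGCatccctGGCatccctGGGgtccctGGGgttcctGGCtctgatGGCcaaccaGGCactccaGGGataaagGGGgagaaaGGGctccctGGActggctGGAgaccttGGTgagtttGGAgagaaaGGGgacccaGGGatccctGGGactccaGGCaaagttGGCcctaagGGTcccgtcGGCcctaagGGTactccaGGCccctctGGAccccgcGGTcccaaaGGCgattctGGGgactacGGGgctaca
C1qc-201 (chr4:136890439-136890582, minus strand): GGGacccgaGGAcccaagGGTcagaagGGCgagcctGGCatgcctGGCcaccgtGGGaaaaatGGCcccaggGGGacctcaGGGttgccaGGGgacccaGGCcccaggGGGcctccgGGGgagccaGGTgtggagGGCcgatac
Tyrobp-201 (chr7:30415670-30417382, plus strand, an intron removed): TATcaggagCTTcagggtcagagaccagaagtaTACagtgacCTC
The run held 16 triplets in C1qa-201 (codons 62 to 109 of 245), 29 in C1qb-201 (codons 31 to 117 of 253) and 16 in C1qc-201 (codons 68 to 115 of 246). The translated C1q chains shared 43.9% of 237 aligned residues between C1qa and C1qb, 39.3% of 234 between C1qa and C1qc, and 46.1% of 245 between C1qb and C1qc. No exact run longer than 15 bases was shared by any pair of these 3 transcripts, and all 3 genes had whole-number counts in both libraries. The Tyrobp ITAM spans codons 92 to 106 of 114.

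The 3 C1q genes lie side by side on chromosome 4 (mm10, 136880129 to 136898803, minus strand) within 18.7 kb, in the order C1qb, C1qc, C1qa. The gaps between them are 3616 and 2851 bases. Of the 10 genes, 7 had a promoter window (250 bases before to 50 after the start) in RefSeq on GRCm38.p6. PU.1, encoded by Spi1, is the master transcription factor of macrophages, and its core GAGGAA was searched on both strands. It was found in 5 of these 7 windows (C1qb, C1qc, Mrc1, Aif1 and Trem2), and 28.3% of all 32851 windows held it. The windows of P2ry12 and Cx3cr1 had no such match. The RUNX core TGTGGT was found in 2 of 7 (C1qc and Cx3cr1) against 16.8% of all windows, and TATAAA in 0 of 7 against 13.6%, also on both strands. CpG dinucleotides numbered 1 to 6 per window, with a median of 4 against 7 over all windows. A match is a description of letters and not a bound site.

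Upstream sequences of 250 bases are printed for the neighbours C1qb and C1qc, and for Mrc1 and Cx3cr1, whose levels differed most clearly between the pools. They run 5′ to 3′ on the gene's strand, with each GAGGAA or its reverse complement in capitals.
C1qb (chr4:136886201-136886450, minus strand): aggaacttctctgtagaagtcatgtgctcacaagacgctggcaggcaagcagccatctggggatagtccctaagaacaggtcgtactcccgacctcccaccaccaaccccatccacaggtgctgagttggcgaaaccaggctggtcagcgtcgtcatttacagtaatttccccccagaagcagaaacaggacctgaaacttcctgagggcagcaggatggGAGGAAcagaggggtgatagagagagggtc
C1qc (chr4:136892915-136893164, minus strand): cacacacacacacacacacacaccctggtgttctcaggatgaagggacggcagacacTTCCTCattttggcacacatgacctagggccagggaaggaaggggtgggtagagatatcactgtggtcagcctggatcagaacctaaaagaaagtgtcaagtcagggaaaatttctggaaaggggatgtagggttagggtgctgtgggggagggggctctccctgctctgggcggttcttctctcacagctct
Mrc1 (chr2:14229164-14229413, plus strand): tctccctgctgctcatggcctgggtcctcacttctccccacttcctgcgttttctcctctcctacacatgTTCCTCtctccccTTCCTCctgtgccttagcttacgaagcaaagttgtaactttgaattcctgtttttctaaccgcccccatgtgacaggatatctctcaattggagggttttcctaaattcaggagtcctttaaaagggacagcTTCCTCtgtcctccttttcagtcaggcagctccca
Cx3cr1 (chr9:120068297-120068546, minus strand): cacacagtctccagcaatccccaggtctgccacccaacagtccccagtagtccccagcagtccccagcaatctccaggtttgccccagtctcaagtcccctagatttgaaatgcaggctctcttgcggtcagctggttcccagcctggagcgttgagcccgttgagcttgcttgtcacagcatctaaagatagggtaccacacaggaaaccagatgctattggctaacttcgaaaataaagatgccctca
The match began 30 bases before the start in C1qb and 193 before it in C1qc, where the other strand reads the core. Mrc1 had 3 matches, at 180, 167 and 35 bases, all on the other strand.

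Replicate 1 held 41760197 expected counts (estimated reads) and replicate 2 held 49256468. Genes took 38884247 and 45975100 of these. Spike-in RNAs took 6.89% and 6.66% of all counts. The 10 genes together took 3874 and 4485 counts, or 0.00996% of gene counts (exact 95% interval 0.00965% to 0.0103%) and 0.00976% (0.00947% to 0.0100%). These intervals cover counting error only, as the cited protocol amplifies cDNA. The members' TPM (transcript abundance corrected for length and scaled to a fixed total) summed to 89.7 and 93.5. Among genes of other cells of the tissue, the 8 erythroid genes had a median of 1081 TPM, the 9 neural genes 272 TPM and the 9 endothelial genes 15.7 TPM. The highest were Hbb-y (8311 TPM), Hba-a2 (4408) and Hba-x (2485) for erythroid cells, Vim (1176), Fabp7 (847) and Tubb3 (619) for neural cells, and Cldn5 (22.6), Esam (20.9) and Kdr (20.1) for endothelium.

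Every member reached 1 TPM in both libraries, so 10 of 10 were detected where 32.1% of all 43346 genes were. Their median was 7.29 TPM, below the 16.4 TPM median of the 13895 detected genes. By mean TPM the highest, C1qb, was 11.8-fold above the lowest, Trem2, though P2ry12 was lowest in replicate 2 and its level was not apart from that of Trem2. The RNA came from whole tissue, in which fewer cells of a type and less RNA per cell cannot be told apart.

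The genes for the C1q chains were among the highest. C1qb, the B chain, had 24.02 TPM in replicate 1 and 26.65 in replicate 2 on 636 and 844 counts (25.3 ± 1.86 TPM, SD, n = 2), which placed it in the top 38.8% of detected genes. C1qc, the C chain, had 13.50 and 14.51 TPM on 399 and 513 counts (14.0 ± 0.714 TPM). C1qa, the A chain, had 10.88 and 11.75 TPM on 274 and 354 counts (11.3 ± 0.615 TPM). The order of the 3 chains was the same in both pools. The level of C1qb was 2.20-fold and 2.26-fold above that of C1qa in replicates 1 and 2, and 1.77-fold and 1.83-fold above that of C1qc. C1qc was 1.24-fold and 1.23-fold above C1qa. For all 3 pairs the deposited TPM intervals, whose confidence level is not stated, did not overlap in either library. Folds between genes here and below were taken on TPM + 0.1.

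Tyrobp had a level between those of C1qc and C1qa by mean TPM, and its receptor partner Trem2 was with P2ry12 at the low end of the members. Tyrobp (chromosome 7, 30413760 to 30417585) had 12.61 and 14.77 TPM on 157 and 220 counts (13.7 ± 1.53 TPM). Trem2 (chromosome 17, 48346401 to 48354147) had 2.18 and 2.11 TPM on 64 and 73 counts (2.15 ± 0.0495 TPM). The adaptor's level was 5.57-fold and 6.73-fold above the receptor's, with intervals apart in both libraries. TYROBP also serves other receptors of myeloid cells, and those receptors were not measured against it here.

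The receptor genes covered a wide range. Csf1r (chromosome 18, 61100598 to 61132149) had 8.41 and 8.18 TPM on 997.55 and 1205.69 counts (8.29 ± 0.163 TPM). Its counts were fractional, the only such case among the 10. An exon of Csf1r overlaps one of Hmgxb3 on the opposite strand, which had 1026.45 and 1216.31 counts, also fractional. The sources used here do not give whether counting used strand, so some reads of this pair are uncertain. Mrc1 (chromosome 2, 14229392 to 14332057) had 6.28 and 4.93 TPM on 836 and 803 counts (5.61 ± 0.955 TPM). Cx3cr1 (chromosome 9, 119901616 to 120069879) had 3.32 and 2.23 TPM on 285 and 232 counts (2.77 ± 0.771 TPM). P2ry12 (chromosome 3, 59216272 to 59262871) had 2.48 and 1.86 TPM on 134 and 119 counts (2.17 ± 0.438 TPM). Mrc1, Cx3cr1 and P2ry12 were each lower in replicate 2 than in replicate 1, whereas Csf1r was nearly level. P2ry12 also overlaps exons of Med12l on the opposite strand (525.41 and 579.73 counts). Cx3cr1 overlaps exons of an antisense gene, Gm33858, not used here. The level of Mrc1 was 2.47-fold and 2.57-fold above that of P2ry12, and Csf1r was 2.49-fold and 3.55-fold above Cx3cr1, with intervals apart in both libraries. Aif1 (chromosome 17, 35170991 to 35176068), the cytoplasmic marker, had 6.04 and 6.53 TPM on 91 and 121 counts (6.29 ± 0.346 TPM).

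Ordered by mean TPM, the members ran C1qb, C1qc, Tyrobp, C1qa, Csf1r, Aif1, Mrc1, Cx3cr1, P2ry12 and Trem2. Of the 9 neighbouring pairs in that order, 3 were apart by their deposited intervals in both libraries: C1qb above C1qc, C1qa above Csf1r, and Mrc1 above Cx3cr1. Over all 45 pairs of members, 38 were apart in both. The neighbours C1qc and Tyrobp, Tyrobp and C1qa, Csf1r and Aif1, and P2ry12 and Trem2 were apart in neither library. Aif1 and Mrc1 were apart in replicate 2 only, and Cx3cr1 was above P2ry12 by intervals in replicate 1 only. With 2 libraries, a likeness of pattern between genes across samples has no meaning, and no gene is named for it.

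**Figure D1:**
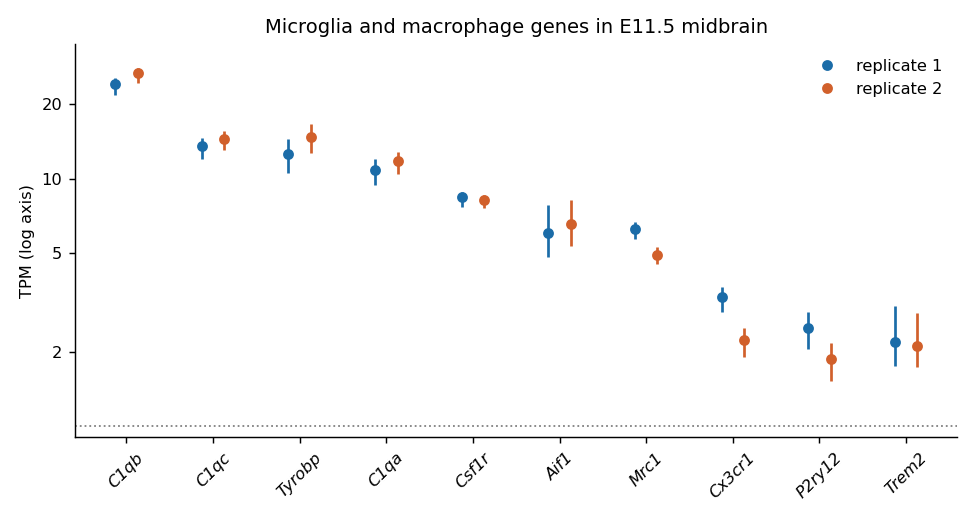
Level of each gene in TPM (log axis) in replicate 1 (blue) and replicate 2 (orange). Points are the deposited TPM and lines the deposited interval, the dotted line marks 1 TPM, and genes are ordered by mean TPM from C1qb (24.02 and 26.65 TPM) to Trem2 (2.18 and 2.11 TPM), all above 1 TPM.

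The partners of these genes were unevenly present. Of 14 ligands and partners, 6 reached 1 TPM in both libraries (42.9%, against 32.1% of all genes). Of the CSF1R ligands, Csf1 had 3.50 and 4.38 TPM, while Il34 had 0.63 and 0.30 TPM on 19 and 12 counts. Cx3cl1, the fractalkine ligand of CX3CR1, had 5.98 and 6.11 TPM. Each of Csf1 and Cx3cl1 was thus measured well above 1 TPM and Il34 stayed below it. Syk, the kinase that binds phosphorylated ITAMs, had 1.77 and 1.60 TPM, and Hcst, the alternative adaptor DAP10, had 3 counts in each library. Apoe, a lipoprotein ligand of TREM2 that other cells also make, had 147.43 and 138.21 TPM. Plxna1, a plexin described with TREM2 and common in neurons, had 17.17 and 19.88 TPM. Between the pools, by the test described below, 2 of the 11 of these genes tested were higher in replicate 2 and 0 lower, against 18.0% and 17.0% of all genes. Those were Csf1 (log2 ratio 0.50, exact binomial adjusted p = 3.44e-05) and Plxna1 (0.22, 2.02e-12).

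The C1q chain genes were measured without comparable levels of the protease and substrate genes that were listed, C1ra, C1s1, C3 and C4b. C1ra, a C1r protease gene, had 0.11 and 0.04 TPM on 8 and 3 counts, and C1s1, a C1s protease gene, had 0.18 and 0.33 TPM on 8.75 and 12.27 counts. C3, the central complement component, had 23 counts in each library, given as 0.51 and 0.14 TPM at effective lengths of 1683 and 4993 bases. C4b was at 0 counts in both, which allows up to 0.0772 and 0.0653 CPM of gene counts, and reads of its near-copy C4a were not examined. The complement receptor chains Itgam (0.30 and 0.15 TPM) and Itgb2 (0.43 and 0.45 TPM) also stayed under 1 TPM. Serping1, the C1 inhibitor, had 29.84 and 28.41 TPM, above the TPM of every member in each library. In replicate 2 its deposited interval (26.5 to 29.5 TPM) overlapped that of C1qb (24.4 to 28.0 TPM). Near-related copies of C1ra and C1s1 exist in the mouse, and the fractional C1s1 counts are uncertain.

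Other genes of the lineage were looked at next. The genes were chosen with earlier results of these data known, so they are no independent check of the label. Of the 6 macrophage and microglia markers listed beyond the members, 5 reached 1 TPM in both libraries, where 32.1% of all genes did. Spi1 had 3.09 and 3.44 TPM, Adgre1 (F4/80) 3.32 and 2.60, Cd68 6.18 and 5.49, Fcer1g 19.47 and 21.01, and Laptm5 16.45 and 20.61. Ptprc (CD45), the common leukocyte antigen, had 1.51 TPM in replicate 1 and 0.75 in replicate 2. Several listed genes below are also made by neural, vascular or mesenchymal cells, so their levels need not come from macrophages.

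In 4 lists of myeloid genes beyond the members, 35 of 52 reached 1 TPM in both libraries, against 32.1% of all genes. Transcription factors did so for 8 of 10, led by Sall1 (13.1 ± 0.127 TPM), which neural progenitors also express, Myb (6.37 ± 0.205 TPM), a progenitor factor, and Irf8 (3.89 ± 0.0283 TPM). Runx1 (0.73 and 0.71 TPM) and Cebpa (0.28 and 0.44 TPM) stayed below. Homeostatic microglia genes did so for 8 of 13, with the broadly expressed Sparc (315 ± 11.5 TPM) and Cst3 (263 ± 4.22 TPM) highest. Tmem119, a marker of adult microglia that bone and mesenchymal cells also express, had 7.51 and 8.42 TPM. Slc2a5, P2ry13, Siglech, Selplg and Gpr84 did not reach 1 TPM in both, and P2ry13, a close relative of P2ry12, had 1.03 and 0.94 TPM.

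Border and yolk sac macrophage genes reached 1 TPM for 6 of 11. Pf4 (64.8 ± 7.08 TPM), which is also a platelet gene, Dab2 (56.3 ± 12.2 TPM), an endocytic adaptor, and Stab1 (23.0 ± 0.318 TPM), a scavenger receptor of macrophages and endothelium, led. Cd163, a scavenger receptor of border macrophages, had 2 and 3 counts, and Siglec1, Ms4a7, Cbr2 and Clec10a also stayed under 1 TPM. By posterior mean TPM, however, Ms4a7 (1.10 and 1.17), Cbr2 (1.44 and 1.09) and Clec10a (1.61 and 1.58) reached it. The rest of the 6 were F13a1 (11.72 and 9.49 TPM), Lyve1 (2.56 and 3.20 TPM) and Folr2 (1.30 and 1.31 TPM). So Mrc1, at 5.61 TPM, was present along with these genes, while Cd163 was near 0. General macrophage genes reached 1 TPM for 13 of 18, led by Lgmn (47.9 ± 0.926 TPM), Cyba (42.4 ± 4.13 TPM) and Coro1a (35.4 ± 0.120 TPM). Ptprc, Cd36, Fcgr1, Cybb and Cd33 did not reach it in both libraries.

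Genes of other blood cells were detected unevenly. Of 9 monocyte and granulocyte genes, 4 reached 1 TPM in both libraries (44.4%, against 32.1% of all genes). The highest were Prtn3 (9.17 ± 0.0424 TPM), S100a8 (2.35 ± 0.467 TPM, on 21 and 19 counts) and Mpo (2.12 ± 0.184 TPM). With the threshold at 2 TPM only 2 of the 9 passed. Ccr2 (25.53 and 27.01 counts), Ly6c2, Elane, Camp and Ngp did not reach 1 TPM in both libraries. Of 9 lymphocyte and mast cell genes, 1 did so, Kit (13.6 ± 0.219 TPM), which other cell types also express. Cpa3 (0.19 and 0.21 TPM) and Nkg7 (0.14 and 0.08 TPM) came next, and Cd3e, Cd8a and Ms4a1 were at 0 counts in both libraries. Megakaryocyte and platelet genes did so for 6 of 7, led by Pf4, Ppbp (13.8 ± 1.51 TPM) and Gp1bb (5.79 ± 0.120 TPM), and Gp1ba stayed below. The summed TPM of the monocyte list was 16.0 in each library and that of the platelet list 87.1 and 96.8. The part of these cells in the members' levels was not tested.

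**Figure D2:**
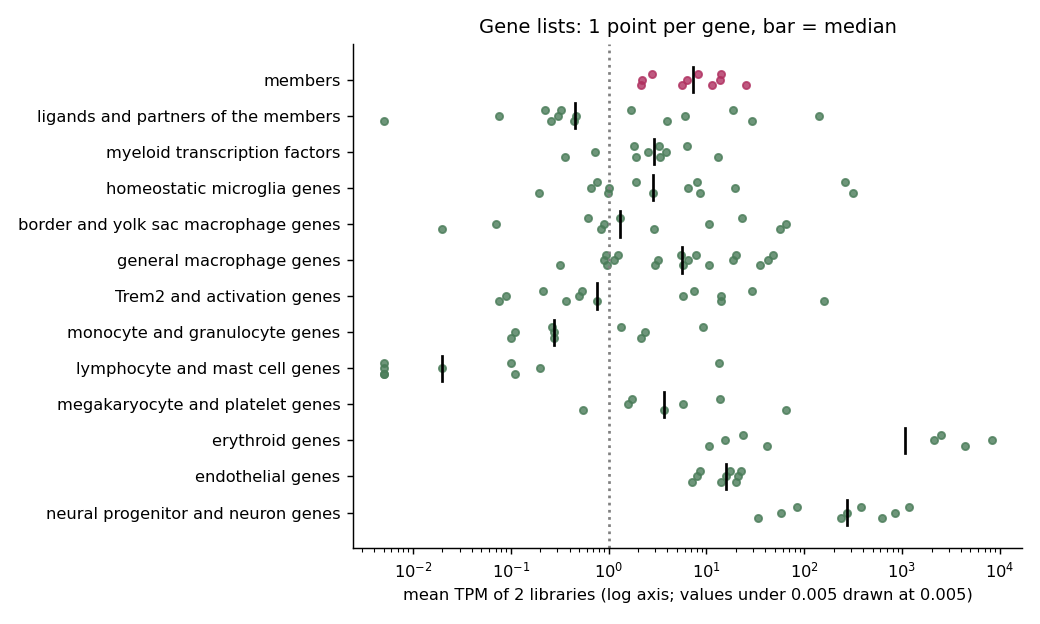
Mean TPM over 2 libraries (log axis) of each gene in 13 lists, with the members in red, the other lists in green and a black bar at each median. The dotted line marks 1 TPM; all 10 members lie above it, and their median of 7.29 TPM lies below the medians of the erythroid, neural and endothelial lists.

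The pools were then compared by counts. For each gene the log2 ratio of replicate 2 over replicate 1 was taken on counts scaled by edgeR's TMM factors, with a 95% counting interval. A two-sided exact binomial test with Benjamini-Hochberg adjustment was run over 17148 genes, and it compares 2 libraries and not conditions. Its p covers counting error only and not the spread between pools. That spread was estimated by edgeR as a common coefficient of variation of 7.80% over 14052 genes. None of the 10 members passed an adjusted p of 0.05 with a 2-fold difference, as 2.80% of all genes did. At an unadjusted p under 0.05 there were 4, 3 lower and 1 higher in replicate 2. At least 34.9% of all genes passed that cut, since this share passed it after adjustment. Without the 2-fold minimum, 2 members passed the adjusted test, both lower in replicate 2, against 34.9% of all genes (17.0% lower and 18.0% higher). The members' 2 of 10 was not above that background.

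Cx3cr1 and Mrc1 were those 2 genes. The log2 ratio of Cx3cr1 was -0.54 (interval -0.80 to -0.29, exact binomial adjusted p = 1.61e-04). The deposited intervals of its level were 2.88 to 3.65 TPM in replicate 1 and 1.90 to 2.49 TPM in replicate 2. The log2 ratio of Mrc1 was -0.31 (-0.45 to -0.16, exact binomial adjusted p = 1.45e-04), with levels of 5.71 to 6.70 and 4.51 to 5.30 TPM. Both genes' intervals were therefore apart, lower in replicate 2, as for 10.2% of all genes. No member was apart in the higher direction, in which 9.80% of all genes were. P2ry12 had a log2 ratio of -0.42 (-0.79 to -0.05), and its adjusted p of 0.0661 by the exact binomial test did not pass.

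The remaining members had smaller ratios. C1qb (0.16), C1qc (0.11), C1qa (0.12), Tyrobp (0.24), Aif1 (0.16) and Csf1r (0.03) had log2 ratios above 0, and Trem2 had -0.06. Of these 7 only C1qb had an interval that left out 0 (0.01 to 0.31), with an exact binomial adjusted p of 0.0897. With spike-in scaling the ratio of C1qb was 0.22 and its exact binomial adjusted p 0.0143, which passed. The median log2 ratio of the members was 0.07 against 0.01 for all genes tested, and the median absolute ratio 0.16 against 0.14. Among the 6111 genes with summed counts between those of Trem2 (137) and Csf1r (2204), the median absolute ratio was 0.16 and the 90th percentile 0.45. Only Cx3cr1 of the members lay past that percentile, which is the share that such a cut itself sets.

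**Figure D3:**
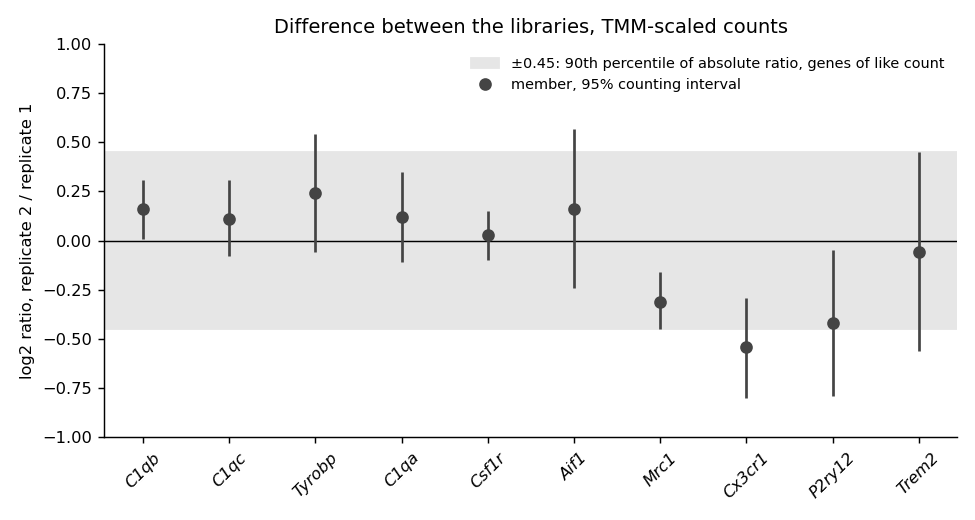
log2 ratio of replicate 2 over replicate 1 for each member on TMM-scaled counts, with 95% counting intervals as lines. The grey band is ±0.45, the 90th percentile of the absolute ratio among genes of like count. Cx3cr1 (-0.54) lies outside it. The intervals of Mrc1, Cx3cr1 and P2ry12 lie below 0, and that of C1qb (0.01 to 0.31) lies above 0.

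The members that were lower in replicate 2 were longer than most of those that were higher. Tyrobp, Aif1, C1qa, C1qb and C1qc had effective lengths of 465 to 1104 bases, P2ry12 about 2019, Cx3cr1 3210 and Mrc1 4974 in replicate 1. Csf1r, at 4431 bases, had a ratio near 0 and Trem2, at 1097, a ratio just under 0. Over all genes tested the median log2 ratio was 0.06 for lengths under 1000 bases and -0.02 for lengths of 4000 or more. With each gene centred on the median of its length class, a setting chosen after seeing the data, the log2 ratio was 0.10 for C1qb, 0.09 for C1qc, 0.06 for C1qa, 0.18 for Tyrobp, 0.10 for Aif1 and 0.05 for Csf1r. It was -0.08 for Trem2, -0.42 for P2ry12, -0.53 for Cx3cr1 and -0.28 for Mrc1. The exact binomial adjusted p under that setting was 2.42e-04 for Cx3cr1, 5.41e-04 for Mrc1 and 0.0655 or more for the rest. Whether length is a cause of these differences was not tested.

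Genes of the 4 other myeloid lists also differed in both directions. Of 49 tested, 3 were higher and 8 lower in replicate 2 by the exact binomial adjusted p, 0 of them at 2-fold, and their median log2 ratio was 0.02. Over all genes 18.0% were higher and 17.0% lower by that test. Laptm5 (log2 ratio 0.30), Pf4 (0.23) and Cyba (0.21) were higher. Ptprc (-0.88), Cd36 (-0.85), Mertk (-0.47), Fcrls (-0.43), Dab2 (-0.38), Adgre1 (-0.34), F13a1 (-0.29) and Olfml3 (-0.22) were lower. These genes were singled out by their values.

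**Figure D4:**
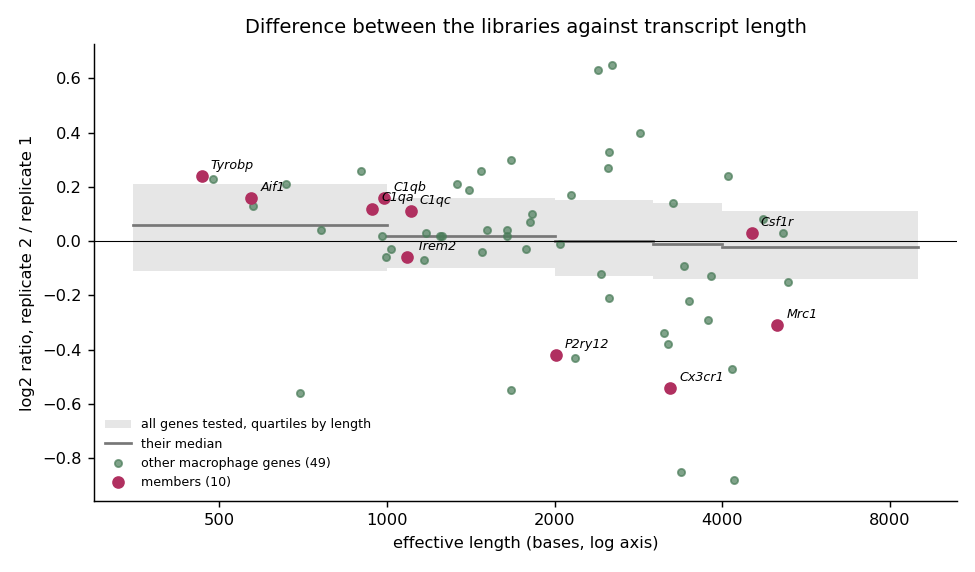
log2 ratio of replicate 2 over replicate 1 against effective length (bases, log axis) for the 10 members (red) and 49 other macrophage genes (green), with grey bands and lines for the quartiles and median of all genes tested in 5 length classes. Mrc1, Cx3cr1 and P2ry12 lie below the bands, and Csf1r lies near 0 at a like length to Mrc1.

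C1qa, C1qb and Tyrobp had 1 transcript each in the tables, and C1qc-201 took 100% of C1qc. Mrc1-201, which is protein-coding, took 90.9% and 94.2% of Mrc1 in replicates 1 and 2, and P2ry12-202 took 93.0% and 100% of P2ry12. Cx3cr1-202 took 73.4% and 66.8%, with Cx3cr1-201 at 26.6% and 33.2%. Csf1r-202 took 79.4% and 100%, while Csf1r-201 had 174.95 counts in replicate 1 and 0 in replicate 2. The latter is an estimate that moved between libraries and not a count of reads unique to a transcript. By posterior mean shares Csf1r-201 took 22.1% and 3.06%, and P2ry12-202 took 86.5% and 91.4%.

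The least certain were Aif1 and Trem2. Aif1-203, protein-coding, took 52.5% and 56.7% of Aif1, and Aif1-205, annotated as a retained intron, took 44.6% and 43.3%. By posterior mean shares Aif1-205 led with 40.0% and 40.3% against 23.1% and 27.2% for Aif1-203. Trem2-201 and Trem2-202, both protein-coding, took 54.5% and 42.2% in replicate 1 and 45.6% and 51.5% in replicate 2. Trem2 was the only member whose leading transcript changed between libraries, on 31.41 and 23.57 counts in replicate 1. In 6 of the 7 members with 2 or more transcripts it was the same.

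**Figure D5:**
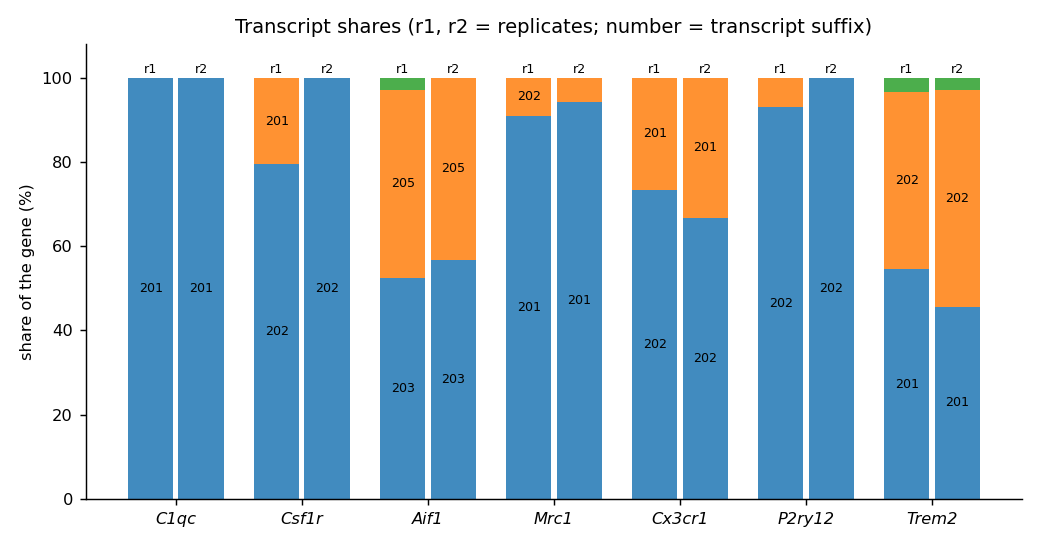
Share (%) of each gene's abundance taken by its transcripts in replicate 1 (r1) and replicate 2 (r2), for the 7 members with 2 or more transcripts; numbers in the bars are transcript suffixes, and transcripts at 0% are not drawn. By these shares Csf1r-201 is seen in replicate 1 only (20.6%), though its posterior mean share is 3.06% in replicate 2. Trem2-201 and Trem2-202 change order.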

How the data were processed

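Total RNA-seq of 2 midbrain pools was analysed from gene and transcript tables. Extraction used a mirVana kit, ERCC spike-ins went in, and a Smart-seq protocol is named, per the labels' protocols. The submitters' processing notes name assembly mm10 and annotation M4. Aligner and quantifier: not given in the sources used here. The authors deposited expected counts (estimated reads, rounded here for tests), FPKM, and TPM both as a maximum likelihood and as a posterior mean estimate, all scaled over every row with spike-ins included. Bounds deposited for TPM, handled here as a signal, carry no stated confidence level. The percent deposited for each transcript is its share of its gene. Spike-in, phiX and 26248 numeric rows were left out of gene totals, the numeric rows holding 1.06e-05% and 2.69e-05% of counts.

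Symbols and coordinates came from GENCODE M21 on mm10 by identifier without version, matching 42462 genes. The members and lists were chosen with earlier results of these data known. Named genes were all members, all ligands and partners, the 3 highest of each other list and those under 1 TPM where 6 or fewer (otherwise the 3 lowest), and transcripts with a mean share of at least 10%. Others named were chosen after their values were seen. For 1 gene that this rule names, the result is not reported here.

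Between libraries, genes reaching 20 counts in sum were tested by a two-sided exact binomial test across all genes, Benjamini-Hochberg adjusted, against library sizes scaled by edgeR 4.0.16 TMM factors (R 4.3.3). Log2 ratios used a prior count of 1 and intervals were exact (95%). Alternatives were scaling by DESeq2 1.42.0, by totals or by spike-ins, other filters, thresholds and estimates, and leaving out each replicate. The comparison was tested on simulated data. These held counting error only, with no spread between pools, so they do not cover such spread. In gene counts, 3 counts correspond to 0.0772 and 0.0653 CPM. C1q chains were translated and aligned globally in Python 3.11.15. RefSeq promoter windows were on GRCm38.p6.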

Additional observations from a re-analysis of the deposited data

How the results depend on the processing

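All 10 members stayed detected at 0.5 and 1 TPM, by posterior mean TPM, by TPM rescaled without spike-ins, by FPKM and in each library alone. At 2 TPM in both libraries 9 did. Spike-ins held 15.2% of TPM in replicate 1 and 14.8% in replicate 2. Rescaling without them raised the mean TPM of each member, as for C1qb from 25.3 to 29.8 TPM. Of the 52 genes in the 4 other myeloid lists, 35 reached 1 TPM, 47 reached 0.5 TPM and 30 reached 2 TPM in both libraries. By posterior mean TPM, 42 reached 1 TPM. Those gained were Runx1, Slc2a5, Ms4a7, Cbr2, Clec10a, Ptprc and Cybb. The number of members called different between the pools was 0 under DESeq2, total and spike-in scaling, with no filter, with a summed count of 50 and with length centring, which was chosen after seeing the data. It was 2 with no fold minimum and 2 where a call meant deposited intervals that did not overlap, in each case because the rule no longer asks for 2-fold. The median log2 ratio of the members ran from 0.06 with length centring to 0.13 with spike-in scaling, which moved the median of all genes to 0.07. In all 6 of those settings 6 members were above 0 and 4 below. Adjusted p of Cx3cr1 ran from 1.47e-04 to 7.94e-04 and of Mrc1 from 1.28e-04 to 0.00241 over 6 settings, and that of C1qb from 0.0143 to 0.316. Neighbouring members apart in level numbered 3 in both libraries and 5 to 5 with either replicate left out, as 1 library then suffices. The 6 folds between named pairs kept their direction under every alternative tried. On CPM, which is not per length, Tyrobp over Trem2 was 2.73 (6.15 on TPM) and P2ry12 over Mrc1 0.154 (0.397 on TPM). Depth limits Trem2 most, with 64 and 73 counts.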

Other observations

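Of 13 genes linked to TREM2 signalling and macrophage activation, 6 reached 1 TPM in both libraries (46.2%, against 32.1% of all genes). The highest were Cd63 (158 ± 4.29 TPM), Cd9 (28.9 ± 3.19 TPM) and Axl (14.2 ± 2.41 TPM), all of which other cells also express. Between the pools, 4 of the 10 tested passed the exact binomial adjusted p, all lower in replicate 2, against 34.9% of all genes in either direction and 17.0% lower. They were Igf1 (-0.24), Cd9 (-0.22), Clec7a (-1.42, 24 and 10 counts) and Lgals3 (-1.38, 19 and 8 counts). The last 2 were also past 2-fold, as 2.80% of all genes were, on few reads. The median log2 ratio of the 10 was -0.23 against 0.01 for all genes, and the other 6 did not pass. Among the lowest, Cst7 had 6 and 5 counts, Ccl4 1 and 2, and the integrin gene Itgax 0 and 19, all under the minimum for a test.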
